A study of Mus musculus with 2 samples.

Results

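The genes of the mitochondrial respiratory chain and ATP synthase were followed in mouse eye organoids on day 4 and day 6 of culture. Members were taken by symbol from the deposited gene list: every symbol that starts with mt-, Ndufa, Ndufb, Ndufc, Ndufs, Ndufv, Uqcr, Cox4 to Cox8 or Atp5, except the Ndufaf assembly factors (7 symbols) and pseudogenes. This gave 94 of 27998 genes, each on 1 line, of which 81 are encoded in the nucleus and 13 in the mitochondrial genome. By nuclear complex there were 36 genes for complex I, 8 for complex III, 20 for complex IV and 15 for complex V. Ndufa4 and Ndufa4l2 were counted with complex IV, where the Ndufa4 protein resides, and Atp5s and Atp5sl belong by name only. The mitochondrial genome gave 7 genes of complex I, 1 of complex III, 3 of complex IV and 2 of complex V. All 94 had a position and a transcript length in the GENCODE annotation of GRCm38, the assembly also called mm10. The nuclear members lay on many chromosomes, with 3 on the X chromosome.

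The organoids were grown from embryonic stem cells heterozygous for a knock-in of green fluorescent protein at Rax, an eye field gene, and both libraries share this genotype. Each day is 1 single-cell library (10x Genomics 3' chemistry) into which 3 biological experiments were pooled, so there was 1 sample per day and no test between the days was possible. After the study's cell filter, the day 4 library held 8147 of 9114 barcodes and 98643495 unique molecular identifiers (UMIs), and the day 6 library held 6641 of 7446 barcodes and 87800738 UMIs, with 78 kept barcodes found in both. The study states more cells for each day than the barcodes analysed here, so the set of cells differs from the one it used. Median depth was 11216 and 12514 UMIs per cell.

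Electrons from NADH enter the chain at complex I, pass to complex III and then to complex IV, which reduces oxygen, and the proton gradient so built drives complex V, the ATP synthase. Each of these complexes joins subunits made in the cytosol from nuclear genes to subunits made inside the organelle from mitochondrial DNA, whereas complex II is wholly nuclear. Pluripotent cells are known for high glycolysis and change their use of respiration as they leave pluripotency. Several subunits of complex IV exist as alternative isoforms that are used in particular tissues.

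Levels are given as CPM, the UMIs of a gene in the summed cells, scaled to a total of 1000000 UMIs. A UMI marks 1 captured transcript end, so CPM is not divided by length, and levels are compared between groups of cells, not between genes. Ratios carry 95% intervals that cover counting error only. Genes averaging 10 CPM or more over both sides of a comparison were measured for a call. A call by size needed a ratio of 1.5 or above (higher) or of 0.667 or below (lower), and an interval without 1. This is a limit of size and not a test of the condition.

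Cells were grouped by their raw UMIs of 5 genes. Dppa5a (at least 5 UMIs) marks naive pluripotent cells, Fgf5 (at least 2) the later epiblast, Six6 (2) the optic vesicle, Wnt8b (2) the dorsal forebrain and Sox10 (2) the neural crest, and a cell that reached more than 1 cut was set aside. Day 4 held 1360 Dppa5a cells and 2940 Fgf5 cells, with 20 Six6, 1 Wnt8b and 0 Sox10 cells, 3002 cells past no cut and 824 past several, 817 of the latter past the Dppa5a and Fgf5 cuts. Day 6 held 575 Dppa5a, 1973 Six6 and 356 Wnt8b cells, with 29 Fgf5 and 25 Sox10 cells, 3582 past no cut and 101 past several. Groups under 50 cells got no profile. For Sox10 the cut was lowered to 1 UMI, as was that of the Six6 cells set beside it, which gave 60 and 2644 cells.

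The markers of each group were checked first. The 7 naive pluripotency markers summed to 1103 CPM in the day 4 Dppa5a group, 923 in the day 6 Dppa5a group and 5.47 in the Six6 group. By these sums the day 4 groups were less distinct, but Pou5f1 is counted in both the naive and the later epiblast list. The naive markers summed to 381 CPM in the Fgf5 group, of which Pou5f1 gave 353 CPM, against 312 in the day 4 Dppa5a group. The other naive markers were each at or under 10.4 CPM (Nanog) in the Fgf5 group. In the day 4 Dppa5a group they ran from 11.9 CPM (Dppa3) to 404 (Tdgf1), each above its Fgf5 level. The 5 later epiblast markers summed to 1809 CPM in the Fgf5 group and 1315 in the day 4 Dppa5a group. Of the latter markers Dnmt3b was higher in the Fgf5 cells (650.2 against 233 CPM) and Utf1 in the Dppa5a cells (509 against 232 CPM). The 4 optic vesicle markers summed to 879.9 CPM in the Six6 group, the 5 dorsal forebrain markers to 194.8 in the Wnt8b group, and the 7 neural crest markers to 513.3 in the Sox10 group. Both libraries are labelled as retina progenitors, but the optic vesicle markers summed to only 36.7 CPM over all day 4 cells. The day 6 Dppa5a group also held cells with endoderm markers: the 5 endoderm markers summed to 199 CPM there against 53.1 in the day 4 Dppa5a group, and 106 of its 575 cells had a UMI of Sox17, Gata4, Gata6 or Foxa2.

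Between the days, most respiratory chain genes were lower on day 6, from both genomes and in every complex. Ndufa1 alone was higher by size, whereas 9 members were lower by size: Cox7c, Atp5l, Atp5k, Ndufv3, Ndufa12, mt-Nd3, Atp5sl, Cox7a1 and Ndufa4l2. The other 79 of the 89 members measured at 10 CPM or more stayed within the size limits. Cox7a1 reached the floor of 10 CPM only through its day 4 level. Among all 6699 genes so measured, 13.3% were higher and 6.28% lower by size, so the members were called higher less often (1.12%) and lower more often (10.1%) than the background. With milder limits, a ratio of 0.8 or below or of the inverse of 0.8 or above, 4 members were higher and 27 lower, against 31.2% and 12.7% of all genes. The median log2 ratio was -0.16 for the nuclear members, -0.27 for the mitochondrial members and 0.14 for all genes. Relative to that shift of all genes, the medians were -0.30 and -0.41, and 17 members in place of 9 were lower by size, against 8.75% of all genes.

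The share of UMIs from the 13 mitochondrial genes was 2.99% on day 4 (95% Clopper-Pearson interval 2.986 to 2.992) and 2.52% on day 6 (2.514 to 2.520). The share from the 81 nuclear genes was 3.11% and 2.67%. Both genomes therefore gave less on day 6, and the mitochondrial UMIs per nuclear UMI differed little, at 0.963 and 0.943. In single cells the quartiles of the mitochondrial share ran from 2.43% to 3.59% on day 4 and from 2.06% to 2.99% on day 6, so the 2 libraries overlapped widely. The share of ribosomal protein genes also moved, from 37.3% to 34.6%. With mitochondrial and ribosomal protein genes left out of the totals, the median log2 ratio was -0.24 for nuclear and -0.34 for mitochondrial members. On these totals 13 members were lower by size, against 8.4% of all genes.

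**Figure D1:**
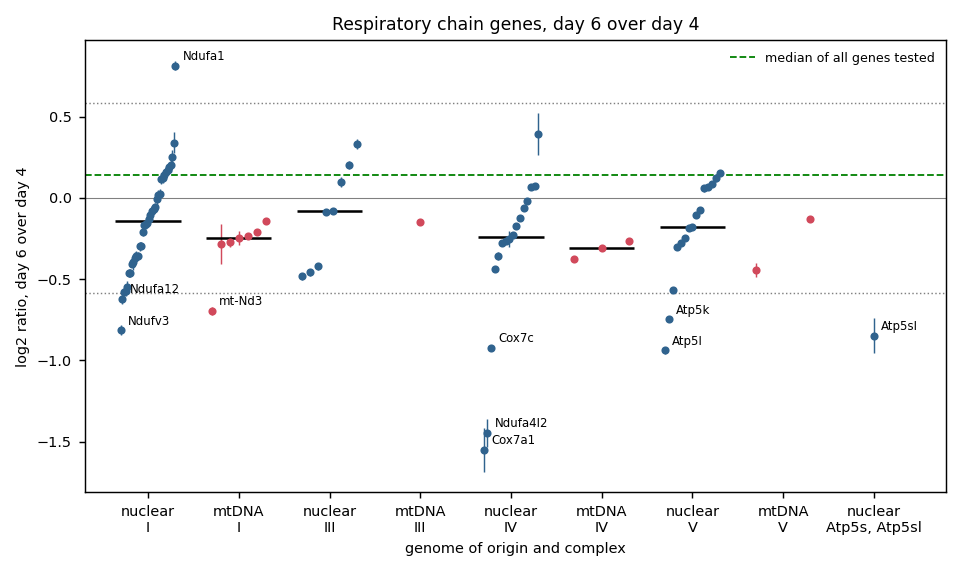
Log2 ratio of each member at 10 CPM or more, day 6 over day 4, over all kept cells, by genome of origin (blue nuclear, red mitochondrial) and complex. Points are genes, bars are 95% counting intervals, black lines are medians of sets with more than 2 genes, dotted lines mark 1.5-fold in each direction and the green line is the median of all genes. Ndufa1 stands alone at the top, and all 13 mitochondrial genes lie below 0.

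In complex I, the summed level of the nuclear members was 8611 CPM on day 4 and 7574 on day 6, and that of the mitochondrial members was 6287 and 5323.5 CPM. Of the 36 nuclear members, 24 had a ratio below 1. The 7 core subunits, which carry the flavin and the iron-sulfur clusters, had ratios from 0.760 (Ndufs8) to 1.27 (Ndufs1, the subunit with the most clusters), and 4 of them were above 1. The 29 accessory subunits, which surround the core, ran from 0.569 to 1.76, and 21 of them were below 1. Ndufv3, a small accessory subunit of the NADH-oxidising arm, was 293 CPM on day 4 and 166 on day 6, a ratio of 0.569 (0.558 to 0.580). Ndufa12 was 261 and 169 CPM (0.650), and Ndufa7 was 684 and 459 CPM (0.670), which did not reach the limit of size. At the upper end, after Ndufa1 and Ndufs1, came the accessory subunit Ndufa9, at 84.8 and 101 CPM (1.19).

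In complex III, the large and the small subunits lay on opposite sides of 1. Uqcrc1 and Uqcrc2, the large core proteins, and Uqcrfs1, the Rieske iron-sulfur protein, all had ratios above 1, at 1.07, 1.26 and 1.15. The 5 small subunits all had ratios below 1. Uqcr10 was 534 CPM on day 4 and 382 on day 6 (0.715), Uqcr11 was 551 and 401 (0.727), Uqcrq was 545 and 407 (0.746), and Uqcrb and Uqcrh were at 0.940 and 0.947. None of the 8 was called by size. In cells past no cut Uqcrc1 was at 0.993, so there 1 of the 3 large subunits was also below 1. This split by role, like that of complex I, was drawn after the values were seen.

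In complex IV, 13 of the 16 nuclear members measured had a ratio below 1, with a median log2 ratio of -0.24. Cox7c, a small membrane subunit, was 1946 CPM on day 4 and 1027 on day 6, a ratio of 0.528 (0.524 to 0.532). Cox7a1 and Ndufa4l2, alternative forms of Cox7a2 and Ndufa4, were at 0.341 and 0.367. Cox4i2, the alternative form of Cox4i1, was the highest, at 9.17 and 12.03 CPM (1.31), followed by Cox7a2l, a factor of supercomplex assembly (1.05), and Cox4i1 (1.05). The isoforms Cox7b2, Cox6a2, Cox8b and Cox8c, were under 1 CPM in both libraries. Cox8b had 3 UMIs on day 4 and none on day 6, where a count of 0 allows up to 0.0342 CPM.

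In complex V, 10 of 15 nuclear members had a ratio below 1. The lowest were subunits of the membrane part, Atp5l (subunit g), at 706 and 368 CPM (0.521, 0.515 to 0.528), and Atp5k (subunit e), at 565 and 337 CPM (0.596). Atp5e, the small epsilon subunit of the central stalk, followed at 685 and 461 CPM (0.674). The catalytic head differed less. Atp5a1 was at 1.06 and Atp5b at 0.948. The upper end was held by Atp5f1, a subunit of the peripheral stalk (1.11), Atp5g3 (1.09) and Atp5a1. The 3 genes of the c ring, which encode the same mature protein, did not move alike: Atp5g1 was at 0.812, Atp5g2 at 0.883 and Atp5g3 at 1.09. Of the 2 genes that belong by name only, Atp5sl was 21.0 and 11.6 CPM (0.555), and Atp5s was under the floor.

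Promoter windows, from 250 bases before to 50 after the start of transcription, were found in the RefSeq table (GRCm38.p6) for 64 of the 81 nuclear members. The core of the site of NRF1, a known regulator of respiratory genes (CGCATGCG, which reads the same on both strands), was present in 9 of these 64 (14.1%), against 2.07% of 27025 genes with a window. The ETS and GABP motif CCGGAAGT was present in 7.81% against 4.31%, the YY1 motif AAGATGGC in 14.1% against 3.19%, and the estrogen-related receptor motif TCAAGGTCA in 1.56% against 0.466%, each on either strand. The windows of Atp5j and Uqcr11 held the NRF1 core together with another of these motifs. Of the 9 members with the NRF1 core, 2 were lower by size between the days, Atp5k and Atp5l. Of the 53 measured members without it 4 were lower, and of all genes 6.28% were. The median log2 ratio was -0.18 for the 9 members with the core and -0.17 for the 53 without it. The windows of Atp5k and Atp5l are shown 5′ to 3′ on the gene's strand with the NRF1 core in capitals, since these were the 2 lowest of complex V. Atp5k is on the minus strand at chr5:108434350-108434649, and its match begins 49 bases before the start. Atp5l is on the minus strand at chr9:44920693-44920992, and its match begins 241 bases before the start. A match in a window is a description and says nothing of binding.
Atp5k: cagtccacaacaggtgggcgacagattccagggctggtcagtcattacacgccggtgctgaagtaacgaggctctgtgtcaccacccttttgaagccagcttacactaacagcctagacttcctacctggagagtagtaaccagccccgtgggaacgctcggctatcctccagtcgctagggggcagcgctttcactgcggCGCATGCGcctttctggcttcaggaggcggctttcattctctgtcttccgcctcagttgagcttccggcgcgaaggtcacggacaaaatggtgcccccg
Atp5l: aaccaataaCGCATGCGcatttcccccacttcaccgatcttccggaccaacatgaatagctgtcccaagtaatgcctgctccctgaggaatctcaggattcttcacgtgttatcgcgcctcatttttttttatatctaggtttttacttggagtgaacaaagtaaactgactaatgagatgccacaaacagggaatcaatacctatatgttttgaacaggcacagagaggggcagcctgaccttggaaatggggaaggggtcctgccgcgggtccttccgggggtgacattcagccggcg

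The members that fell most tended to have short transcripts. Across the 76 nuclear members measured, Spearman's rho between transcript length and log2 day ratio was 0.32, given as a description, since genes are not independent replicates and share the same libraries. The 6 members under 500 bases had a median log2 ratio of -0.53, those of 500 to 999 bases -0.18 (41 genes) and those of 1000 bases or more -0.07 (29 genes). The first of these classes rests on few genes. The 82 cytosolic ribosomal protein genes gave a rho of 0.55, and other genes under 1000 bases (485 genes) gave 0.23, whereas all 6529 other genes gave 0.06. Between the libraries within the Dppa5a groups rho was 0.38, but within a library it was 0.09 (day 4 Dppa5a over Fgf5) and -0.04 (day 6 Dppa5a over Six6). Whether length, or a difference in library preparation between the days, had a part in the day ratios was not tested, and day and library cannot be told apart.

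The genes of the mitochondrial genome were lower on day 6 in 13 of 13 cases, with ratios from 0.617 to 0.912. In cells past no cut 12 of 13 were lower, and mt-Nd6 was at 1.07 (0.926 to 1.24). The transcripts of complex IV, which form its catalytic core, were 5264 CPM on day 4 and 4061 on day 6 for mt-Co1 (0.771), 3938 and 3275 for mt-Co2 (0.832), and 5504 and 4434 for mt-Co3 (0.806). mt-Cytb of complex III was 1885 and 1703 CPM (0.903), and mt-Atp6 of complex V was 6899.97 and 6292 CPM (0.912). Complex I was more spread, from mt-Nd3, at 412 and 254 CPM (0.617, 0.607 to 0.628), over mt-Nd6 (0.821), mt-Nd5 (0.827), mt-Nd4l (0.843), mt-Nd1 (0.849) and mt-Nd2 (0.863) to mt-Nd4 (0.906). mt-Nd3 was the only one called by size. mt-Atp8, which is read from the same transcript as mt-Atp6 and overlaps it, was 114 and 83.8 CPM (0.736), and its UMIs cannot be cleanly set apart from those of its partner.

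Set against cell groups, this drop of the mitochondrial genes was not uniform. From the day 4 Fgf5 group to the day 6 Six6 group all 13 were lower, with ratios from 0.591 to 0.869 and a median log2 ratio of -0.33, and mt-Co1 (0.659) joined mt-Nd3 (0.591) below the size limit. From the day 4 Dppa5a group to the day 6 Dppa5a group, which lie in the same 2 libraries, the ratios ran from 0.746 to 1.10 with a median of -0.02, and 4 of 13 were above 1. mt-Co1 was 6094 CPM in the day 4 Dppa5a group and 6089 in the day 6 Dppa5a group, against 5336 in the Fgf5 group and 3518 in the Six6 group. The pooled mitochondrial share was 2.90% and 2.96% in the Dppa5a groups, 3.15% in the Fgf5 group, 2.42% in the Six6 group, 2.44% in the Wnt8b group and 2.43% in the Sox10 group. It was thus highest in the Fgf5 cells, while mt-Co1 was highest in the Dppa5a cells. With the endoderm-marked cells left out of the Dppa5a groups, the median from day 4 to day 6 was -0.09. The difference between the 2 day ratios was not tested, since each rests on 1 library per day.

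**Figure D2:**
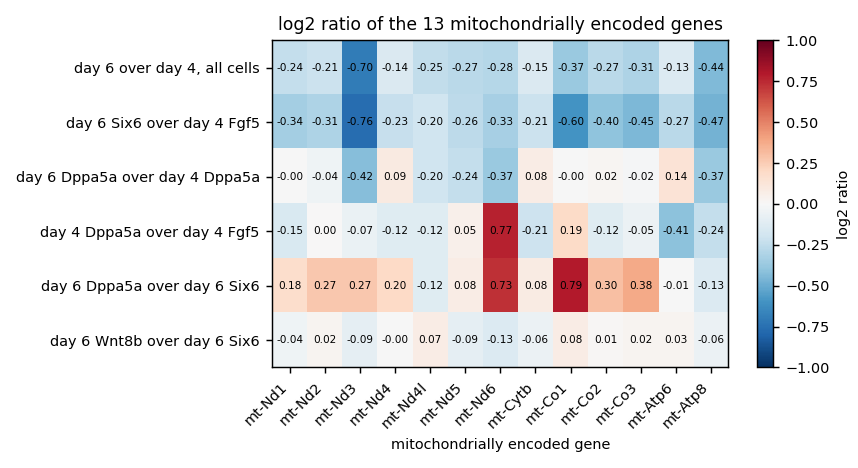
Log2 ratios of the 13 mitochondrially encoded genes (columns) in 6 comparisons (rows), red for higher and blue for lower in the first-named group. The upper pair of rows is blue throughout, and the third row, Dppa5a cells of the 2 days, holds values from -0.42 to 0.14. In day 6 Dppa5a over Six6, 10 of the 13 genes are above 0, and mt-Nd6 and mt-Co1 are the highest.

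The nuclear share did not follow that pattern. It was 3.04% and 3.17% in the day 4 Dppa5a and Fgf5 groups and 2.77%, 2.72%, 2.66% and 2.56% in the day 6 Dppa5a, Six6, Wnt8b and Sox10 groups. It was thus lower in all day 6 groups, and the groups of a day differed little beside the spread over cells, whose quartiles in the Six6 group ran from 2.52% to 2.96%. Mitochondrial UMIs per nuclear UMI were 1.07 in the day 6 Dppa5a group and 0.889 in the Six6 group. Across the cells of the Dppa5a group the 2 shares had a Spearman rho of 0.35 over 575 cells, whereas in the Six6 group rho was -0.23 over 1973 cells. These values describe cells of 1 library that share its depth.

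**Figure D3:**
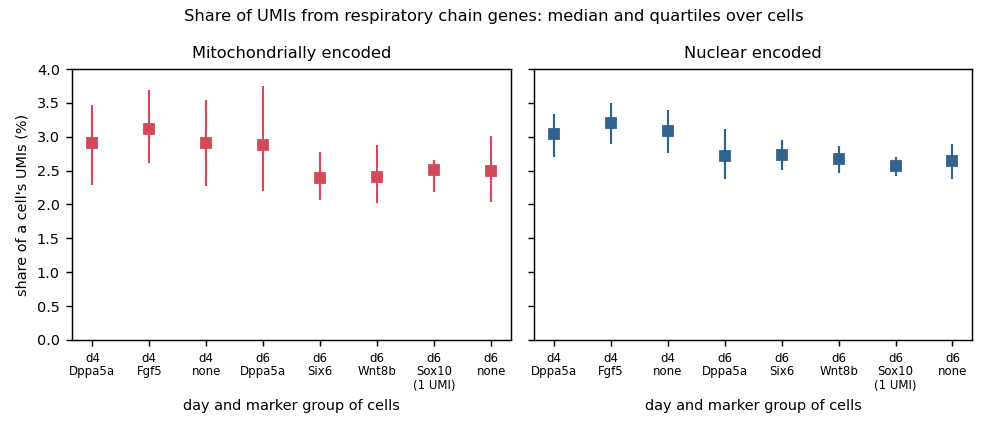
Share of a cell's UMIs from the 13 mitochondrial (left, red) and the 81 nuclear (right, blue) members, in percent, by day and marker group. Squares are medians over cells and bars run between the quartiles. The mitochondrial share is near 2.9% in the Dppa5a cells of both days and near 2.4% in the Six6 and Wnt8b cells.

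Within the day 6 library, Ndufa1 set the Six6 cells apart. This small X-linked accessory subunit is needed for the assembly of complex I. It was 443 CPM in the Six6 group, against 180 in the Wnt8b group, 138 in the Dppa5a group and 256 in the cells past no cut. All day 4 groups lay between 159 and 171 CPM, so the Six6 group and the unmarked day 6 cells lay well above every day 4 group. The ratio was 0.405 (0.379 to 0.432) for Wnt8b over Six6, 0.312 (0.294 to 0.332) for Dppa5a over Six6, and 2.59 (2.52 to 2.67) for Six6 over the day 4 Fgf5 group. In the Sox10 cells, at the cut of 1 UMI, it was 145 CPM against 420 in the matching Six6 cells (0.345). Over all cells of a day it was 169 CPM on day 4 and 296 on day 6 (1.76, 1.72 to 1.79). In the cells past no cut the day ratio was 1.52. The value over all cells includes the Six6 cells, and what part their number had in it was not tested.

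The level rose with the Six6 UMIs of the cell. Once cells past any other cut were left out, Ndufa1 in day 6 cells was 233 CPM at 0 Six6 UMIs, 341 at 1, 404 at 2, 440.3 at 3 to 4 and 469 (456 to 482) at 5 or more. The other X-linked members stayed level over the same classes, Ndufb11 between 212 and 219 CPM and Cox7b between 408 and 429 CPM. Classes by raw UMIs also differ in depth. The median was 11780 UMIs per cell at 0 Six6 UMIs, 11781.5 at 2 and 14635.5 at 5 or more. What part depth had was not tested. Day 4 cells with no Six6 UMI were at 168 CPM. Over the 6641 cells of day 6 the gene whose values were most like those of Ndufa1 was Six6 itself (Pearson r 0.42), followed by Pax6, Shisa2, Mdk and H3f3a. Six6 defined the group in which Ndufa1 was highest, so its r restates the grouping and is no separate result. On day 4 no gene exceeded 0.17. These comparisons by Six6 level were added after the data were seen.

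Ndufa1 lies on the minus strand at chrX:37187588-37191163, and Rnf113a1 (a ring finger and zinc finger gene) lies on the plus strand at chrX:37191245-37192467, so the 2 genes start head to head. Rnf113a1 was also highest in the Six6 cells, at a far lower level, with 27.9 CPM in the Six6 group, 9.75 in the Wnt8b group, 9.67 in the Dppa5a group and 9.53 in the Sox10 group. Over all cells it was 7.45 CPM on day 4 and 19.6 on day 6. On the other side of Ndufa1, Akap14 was at or under 0.113 CPM in these groups, and Nkap was 38.1 CPM in the Six6 group, 35.5 in the Wnt8b group, 23.1 in the Dppa5a group and 22.2 in the Sox10 group, against 23.4 over all day 4 cells. Nkap thus was also lower in the Dppa5a and Sox10 cells than in the Six6 cells, but not in the Wnt8b cells to the extent of Ndufa1. In RefSeq the first transcribed base of Ndufa1 is at 37191238 and that of Rnf113a1 at 37191222. These lie 16 bases apart, and given the strands the 2 transcripts overlap at their 5′ ends. By the GENCODE positions given above they do not overlap. The RefSeq windows share 83 bases. The window of Ndufa1 is on the minus strand at chrX:37191189-37191488. None of the 4 motifs was found in it, so no base is in capitals, which says only that these letters are not in this window.
Ndufa1: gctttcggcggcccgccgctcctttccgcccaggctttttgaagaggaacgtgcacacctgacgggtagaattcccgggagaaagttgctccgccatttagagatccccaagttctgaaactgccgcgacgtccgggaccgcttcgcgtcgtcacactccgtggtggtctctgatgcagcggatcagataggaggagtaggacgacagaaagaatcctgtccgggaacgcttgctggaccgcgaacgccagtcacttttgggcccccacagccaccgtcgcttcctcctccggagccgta

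**Figure D4:**
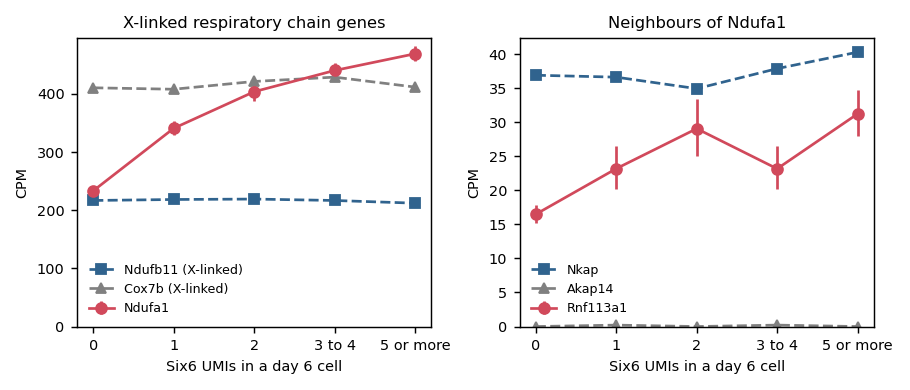
Levels in CPM in day 6 cells by the number of Six6 UMIs in the cell, with cells past any of the other 4 cuts left out. Left, the 3 X-linked members; right, the neighbours of Ndufa1. Bars on Ndufa1 and Rnf113a1 are 95% counting intervals. Ndufa1 climbs at each step from 233 to 469 CPM. Rnf113a1 is 16.5 CPM at 0 and 31.2 CPM at 5 or more Six6 UMIs but falls back to 23.2 CPM at 3 to 4, while Nkap stays between 34.9 and 40.3 CPM.

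Among the members called higher in the Dppa5a cells on both days were 3 alternative subunits of complex IV. In the day 4 library 4 members were higher by size in the Dppa5a group than in the Fgf5 group (background 8.75% of 6481 genes), namely Ndufa4l2, Cox7a1, Cox6b2 and mt-Nd6, and 1 was lower, Atp5k (background 16.6%). In the day 6 library 6 of 89 members were higher in the Dppa5a group than in the Six6 group (background 14.6%), namely the same 4 with Cox4i2 and mt-Co1, and 2 were lower, Ndufa1 and Ndufs1 (background 28.3%). On day 6 Ndufa4l2, Cox7a1, Cox4i2 and mt-Nd6, 4 of the 6, reached the floor of 10 CPM only through the Dppa5a group, where they were high. At a floor of 50 CPM 2 members in place of 6 were called higher (9.43% of all genes). On day 4 that floor left 2 in place of 4 (5.97% of all genes). Each count was a smaller share of the members than the background, and the grouping by Dppa5a was chosen with earlier results of these data known. In both contrasts the all-gene median was below 0 (-0.22 and -0.23 on the log2 scale). Relative to it 16 of 89 members were higher on day 6 in place of 6, still a smaller share than the 21.0% of all genes. On day 4 none was lower, against 7.53% of all genes.

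Ndufa4l2, the alternative form of Ndufa4 that is induced when oxygen is low, was 102 CPM in the day 4 Dppa5a group and 29.6 in the Fgf5 group, a ratio of 3.43 (3.18 to 3.71). On day 6 it was 67.9 CPM in the Dppa5a group, 3.38 in the Six6 group, 7.17 in the Wnt8b group, 14.6 in the cells past no cut and 1.06 in the Sox10 cells. The ratio of Dppa5a over Six6 was 20.1 (16.1 to 25.4). Ndufa4 itself was lower in the Dppa5a group on both days, but within the size limits, at 704 against 860 CPM on day 4 (0.819) and 623 against 816 on day 6 (0.763). The drop of Ndufa4l2 over all cells of a day, from 45.4 to 16.7 CPM, was 0.668 within the Dppa5a groups and 0.526 in cells past no cut. Across cells of both days the gene most like it was Aldoa, a glycolytic enzyme (r 0.45 on day 4 and 0.42 on day 6).

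Cox7a1, the form of Cox7a2 known from heart and muscle, was 44.9 CPM in the day 4 Dppa5a group and 13.01 in the Fgf5 group (3.45, 3.07 to 3.88). On day 6 it was 36.2 CPM in the Dppa5a group and 2.02 in the Six6 group (17.9, 13.4 to 24.4). It was 3.49 CPM in the Wnt8b group, and the Sox10 cells had no UMI, which allows up to 3.18 CPM. Cox7a2 was lower in the Dppa5a group on both days, within the size limits, at 540 against 639 CPM (0.845) and 443 against 501 CPM (0.884). Across day 6 cells the genes most like Cox7a1 were Dppa5a (r 0.36) and Zfp42 (r 0.35). Dppa5a defined the group, so its r restates the grouping and is no separate result.

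Cox6b2, the form of Cox6b1 known from testis, was 158 CPM in the day 4 Dppa5a group and 62.0 in the Fgf5 group (2.55, 2.41 to 2.70). On day 6 it was 179.9 CPM in the Dppa5a group, 44.4 in the Six6 group (4.06, 3.75 to 4.38), 56.7 in the Wnt8b group and 20.1 in the Sox10 cells. Cox6b1 was 567 against 654 CPM on day 4 and 485 against 654 CPM on day 6 (0.866 and 0.742). For all 3 pairs the alternative form was thus called higher in the Dppa5a cells, while the usual form had a ratio below 1. Relative to the median of all genes the direction of the usual form turned for Cox7a2 on day 6 (1.04) and for Cox6b1 on day 4 (1.01).

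The remaining pairs were less uniform. Cox4i2 was 18.6 CPM in the day 6 Dppa5a group and 8.52 in the Six6 group (2.18), but 10.0 and 7.97 CPM on day 4, under the floor of the comparison, and Cox4i1 was also above 1 in the Dppa5a group on both days (1.26 and 1.31). Cox7b2, Cox8c and Cox6a2 were at 1.69, 0.978 and 0.782 CPM in the day 4 Dppa5a group and at 0.486, 0.204 and 0.358 in the Fgf5 group, all under the floor for a call. Their usual partners Cox7b, Cox8a and Cox6a1 had ratios of 1.03, 0.991 and 1.198. On day 6 Cox7b2, Cox8c and Cox6a2 were at 1.36, 1.12 and 0.372 CPM in the Dppa5a group, also under the floor. In the Six6 group Cox7b2 was at 0.110 CPM, and Cox8c and Cox6a2 had no UMI.

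Free RNA gives UMIs to cells that do not express a gene. No profile of empty droplets was made, so the levels outside the Dppa5a groups are only set beside those of naive markers. On day 6 the naive markers Zfp42, Tdgf1, Dppa3, Nanog, Klf2 and Esrrb stood in the Six6 group at 0.286% to 1.67% of their level in the Dppa5a group. Ndufa4l2 and Cox7a1 stood at 4.97% and 5.58%, and Cox6b2 at 24.7%. These 3 percentages were above those of the markers named, by most for Cox6b2, and what part free RNA had was not tested. On day 4 the same markers stood in the Fgf5 group at 0.839% to 5.34%, except Nanog at 28.8%. Ndufa4l2 and Cox7a1 stood at 29.1% and 28.96%, close to Nanog, and Cox6b2 stood at 39.2%. Pou5f1, the remaining naive marker, was 353 CPM in the Fgf5 group and 312 in the Dppa5a group on day 4. On day 6 it was 1.65 CPM in the Six6 group and 216 in the Dppa5a group. With the endoderm-marked cells left out, the ratios of Dppa5a over Six6 on day 6 were 24.1 for Ndufa4l2, 18.8 for Cox7a1 and 4.19 for Cox6b2, as large as with them.

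The promoter windows of the 2 alternative subunits found in the table are shown in lower case, since neither held any of the 4 motifs. Cox7a1 is on the plus strand at chr7:30183921-30184220, and Cox6b2 is on the minus strand at chr7:4753045-4753344.
Cox7a1: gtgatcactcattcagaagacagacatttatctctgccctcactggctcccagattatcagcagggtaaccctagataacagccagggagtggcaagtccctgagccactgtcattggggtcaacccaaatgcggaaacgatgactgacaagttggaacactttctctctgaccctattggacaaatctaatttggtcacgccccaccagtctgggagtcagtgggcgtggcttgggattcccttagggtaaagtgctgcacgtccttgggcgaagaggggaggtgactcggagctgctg
Cox6b2: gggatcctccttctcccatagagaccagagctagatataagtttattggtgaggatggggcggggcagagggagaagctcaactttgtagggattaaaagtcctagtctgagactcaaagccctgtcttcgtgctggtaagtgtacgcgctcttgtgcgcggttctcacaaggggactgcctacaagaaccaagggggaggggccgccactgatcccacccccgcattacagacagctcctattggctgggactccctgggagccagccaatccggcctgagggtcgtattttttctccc

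**Figure D5:**
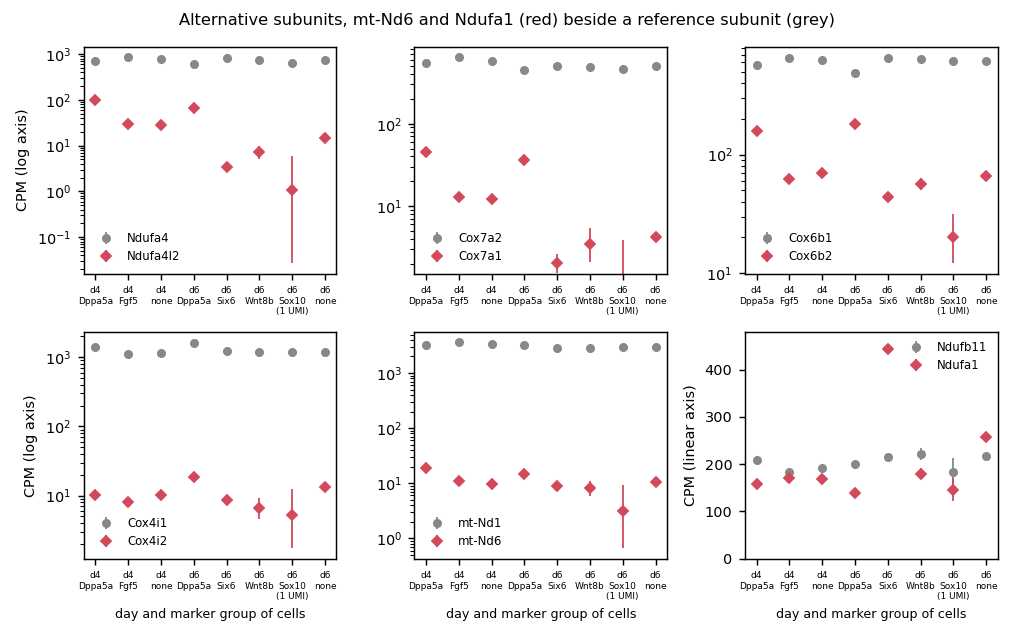
Levels in CPM by day and marker group for 6 members (red diamonds), each beside another member for its pattern only (grey circles). Bars are 95% counting intervals, the axis is logarithmic except for Ndufa1, and a group with no UMI shows only the top of its interval. Ndufa4l2, Cox7a1 and Cox6b2 are highest, among the groups plotted, in the Dppa5a cells of each day, and Ndufa1 is highest in the day 6 Six6 cells at 443 CPM.

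Of the mitochondrial genes, mt-Nd6 was higher by size in the Dppa5a group on both days, at 19.1 against 11.2 CPM on day 4 (1.71, 1.47 to 1.98) and 14.8 against 8.89 on day 6 (1.66, 1.32 to 2.08). It is the only protein gene on the light strand, and its transcript is known to lack a stable poly(A) tail, on which this chemistry primes. It rested on 293 and 119 UMIs in the Dppa5a groups. mt-Co1 was 6089 CPM in the day 6 Dppa5a group and 3518 in the Six6 group (1.73, 1.71 to 1.75), but 6094 and 5336 CPM on day 4 (1.14). mt-Co2 and mt-Co3 were above 1 on day 6 (1.23 and 1.30), and mt-Atp6 was at 0.995. In that day 6 comparison 10 of the 13 mitochondrial genes were above 1, and their median log2 ratio was 0.20 over all 13. With the endoderm-marked cells left out the median was 0.09, and mt-Co1 and mt-Nd6 were at 1.68 and 1.74.

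Among nuclear members that were lower in Dppa5a cells, Atp5k was 404 CPM on day 4 against 621 in the Fgf5 group (0.650, 0.632 to 0.669), and the call was lost when ratios were taken relative to all genes (0.759). Ndufs1, the large iron-sulfur subunit of complex I, was 34.3 CPM in the day 6 Dppa5a group and 54.4 in the Six6 group (0.631), and it too lost its call on that scale (0.743). On day 4 Ndufs1 was at 0.788, with no call.

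Between the Dppa5a groups of the 2 days 1 member was higher by size on day 6, Cox4i2 (1.85, background 9.45%), and 2 were lower, Ndufa5 (192 and 121 CPM, 0.629) and Ndufv3 (312 and 203 CPM, 0.653; background 2.45%). The call of Cox4i2 was lost with lower cuts (1.499) and at a floor of 50 CPM. The count of lower members was 5 relative to the median of all genes (3.86% of all genes) and 4 without the endoderm-marked cells (2.40%). From the Fgf5 group to the Six6 group 1 member was higher (Ndufa1, background 16.6%) and 14 of 87 were lower (16.1% of members, background 8.06%). Of these 14, Ndufa4l2 (0.114), Cox7c (0.461), Atp5l (0.492), Ndufv3 (0.519), Atp5sl (0.559) and Atp5k (0.560) were the lowest. The rest ran from 0.589 (Ndufa12) and 0.591 (mt-Nd3) to 0.665 (Ndufb2).

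The neural groups of day 6 differed little. For Wnt8b over Six6, 0 of 85 members were higher (background 2.64%) and 1 was lower, Ndufa1 (background 2.15%). Leaving Ndufa1 aside, the 84 other members lay between 0.884 (Cox5a) and 1.28 (Cox6b2). The median log2 ratio was -0.01 for nuclear and 0.00 for mitochondrial members.

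For Sox10 over Six6, 0 of 85 members were higher (background 7.1%) and 4 were lower (background 9.23%): Ndufa1 (0.345), Cox6b2 (20.1 against 47.5 CPM, 0.424), Ndufs1 (28.6 against 52.6 CPM, 0.543) and Ndufs4, an accessory subunit of complex I (132 against 199 CPM, 0.665, 0.553 to 0.794). Cox6b2 and Ndufs1 rest on 19 and 27 UMIs in the 60 Sox10 cells. With cells thinned to 5000 UMIs Ndufs1 lost its call (0.795) and Cox6b2 was at 0.207, and with cells past several cuts kept Cox6b2 was at 0.597. Ndufs4 lost its call in 5 alternatives, at 0.672 to 0.708, and at a floor of 50 CPM Ndufa1 and Ndufs4 alone remained called. Nuclear complex I had a median log2 ratio of -0.15 in this comparison, and mitochondrial members one of -0.01.

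Cells with under 0.5% mitochondrial UMIs, 339 on day 4 and 210 on day 6, were kept by the filter. Their pooled mitochondrial share, which defined them, was 0.140% and 0.0977%. Their nuclear share was 2.33% and 1.95%, below that of all cells, and their ribosomal protein share was 43.9% and 44.7%. Nuclear members did not move alike in them. Cox7a2l was 967 CPM on day 4 and 1072 on day 6, against 530 and 557 CPM in all cells, whereas Ndufa4 was 418 and 348 CPM against 809.5 and 743. Ndufa4l2 (127 CPM) and Cox6b2 (202 CPM) on day 4 were above their levels in all cells (45.4 and 84.8 CPM) and in the Dppa5a group (102 and 158 CPM), as was Cox6b2 on day 6 (188 CPM, against 179.9 in the Dppa5a group). Cox7a1 went the other way on day 4, at 9.14 CPM against 19.8 in all cells.

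Other genes of the pathway were counted from lists by function. Complex II, the remaining entry point of electrons, had 4 of 4 genes within the size limits between the days (median log2 ratio 0.19), as had cytochrome c and cytochrome c1 (2 of 2). Of 3 partners of complex V 1 was lower, the ATPase inhibitor Atpif1, at 925 and 571 CPM (0.617), which also fell between the Dppa5a groups (0.650). Of 38 assembly factors measured 2 were higher (among them Acad9, 1.59) and 3 were lower (Cox17, a copper chaperone, 0.580; Ndufaf3, 0.599; Cox20, 0.650), which is 5.26% and 7.89% of the list against 13.3% and 6.28% of all genes. None of 5 nuclear regulators was called. Of 10 genes of mitochondrial transcription and DNA upkeep 1 was lower, the mitochondrial DNA polymerase Polg (23.7 and 14.9 CPM, 0.626), and the uncoupling carrier Ucp2 was lower (40.4 and 25.5 CPM, 0.631). For Dppa5a over Six6 on day 6, 9 of 38 assembly factors were lower (23.7%) and 5 higher (13.2%), against 28.3% and 14.6% of all genes. Cycs, cytochrome c itself, singled out after its values were seen, was lower in the Dppa5a group on both days, at 188 against 331 CPM (0.566) and 160 against 326 CPM (0.490).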

How the data were processed

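Each library was made with 10x Genomics 3' version 2 chemistry, and the authors deposited whole-number UMI counts per gene and barcode, made with Cell Ranger (version 2.0.1 in the submitters' processing notes, which also name Seurat 2.3.4 and build mm10). The deposited counts were filtered by the study's limits: 500 to 5000 genes, 500 to 26000 UMIs, at most 10% mitochondrial, at least 20% ribosomal and at most 0.5% haemoglobin UMIs. No doublet caller was run. UMIs were summed over the cells of each group and compared as CPM with exact conditional binomial intervals (Python 3.11.15, scipy 1.17.1, pandas 2.3.3), without a test, since cells are not replicates. The code was tested on simulated data. The members, groups and lists were chosen with earlier results of these data known. The text names all mitochondrial members, the 3 highest and 3 lowest of each nuclear complex by day ratio, paired isoforms, members called by size (of more than 12 calls, the 6 highest and 6 lowest) and at most 4 called genes of each other list. Further members named beside these were chosen after their values were seen. Alternatives changed the cell filter, cuts, totals, floor, size limit and depth.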

Additional observations from a re-analysis of the deposited data

How the results depend on the processing

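Of 684 ratios of called members recomputed under the alternatives, 642 kept their call, 42 kept the direction without the call and 0 reversed. Of 208 medians, 195 moved by no more than 0.1 on the log2 scale. Part of these outcomes was fixed in advance. A floor of 1 CPM and the milder limits cannot remove a call, and a changed floor or limit leaves each ratio as it was. The milder limits also leave the medians unchanged. The day ratio of Ndufa1 ran from 1.52 to 1.83. In the counts of members that follow, brackets give the percentage of all genes called the same way under that setting. With the milder limits of 0.8 and its inverse, 4 members were higher (31.2%) and 27 lower (12.7%) between the days. For day 4 Dppa5a over Fgf5, 9 were lower (39.9%). For day 6 Dppa5a over Six6, 18 were higher (21.9%) and 9 lower (44.6%). For Sox10 over Six6, 1 was higher (11.0%) and 13 lower (12.6%). For Wnt8b over Six6, 1 was higher (6.17%). For Six6 over Fgf5, 5 were higher (33.8%) and 35 lower (16.7%). For Dppa5a cells between the days, 16 were lower (8.33%). Relative to the median of all genes, 17 were lower between the days (8.75%) and 0 lower for day 4 Dppa5a over Fgf5 (7.53%). On that scale 16 were higher (21.0%) and 1 lower (16.5%) for day 6 Dppa5a over Six6. It gave 22 lower for Six6 over Fgf5 (11.7%) and 5 lower for Dppa5a cells between the days (3.86%). With totals that left out mitochondrial and ribosomal protein genes, 0 were lower for day 4 Dppa5a over Fgf5 (12.01%). Those totals gave 11 higher (21.6%) and 1 lower (19.2%) for day 6 Dppa5a over Six6. They also gave 2 higher for Dppa5a cells between the days (10.3%). At a floor of 50 CPM fewer genes were measured. It gave 2 higher for day 4 Dppa5a over Fgf5 (5.97%), and 2 higher (9.43%) and 1 lower (29.9%) for day 6 Dppa5a over Six6. It also gave 2 lower for Sox10 over Six6 (5.57%) and 0 higher for Dppa5a cells between the days (5.45%). A floor of 1 CPM gave 1 higher for Wnt8b over Six6 (5.19%) and 2 higher for Dppa5a cells between the days (14.6%). Thinning to 5000 UMIs gave 1 lower for day 6 Dppa5a over Six6 (29.96%) and 2 higher for Dppa5a cells between the days (12.02%). Lower cuts gave 1 lower (26.3%) and 0 higher (11.1%) in the same comparisons, in that order. Without a cell filter 0 were lower for day 4 Dppa5a over Fgf5 (17.4%). Without endoderm-marked cells, an alternative chosen after seeing the data, as was leaving out shared barcodes, 4 were lower in Dppa5a cells between the days (2.40%). The mitochondrial share on day 4 was 3.01% without a filter, 2.97% with a limit of 20000 UMIs and 3.07% without cells under 0.5% mitochondrial UMIs, and on day 6 it was 2.48%, 2.53% and 2.57%. The nuclear share on day 4 was 3.07%, 3.12% and 3.13%, and on day 6 it was 2.69% without the last cells. Except where stated by construction, the cause was not tested. The Sox10 comparison was not run with the limit of 20000 UMIs or with higher cuts, which left under 50 cells. No paired analysis was possible because each day was 1 library, and day, library and pool of experiments cannot be told apart.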
